A study of Mus musculus with 151 samples.

Results

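Immune cell and inflammation genes were followed through ovaries, germ cells and cumulus cells of mice conceived naturally (Natural) or by in vitro fertilization (IVF). The set was a fixed list of 43 gene names, all of which were found in each of the 7 count tables, out of 35949 distinct names shared by these tables. It was read in groups of 19 macrophage genes, 6 lymphocyte genes, 4 antigen presentation genes, 10 chemokines and chemokine receptors, and 4 innate receptors and cytokines. The rule names the genes and uses no measured value, but the list was drawn up with earlier results of these data known.

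Natural and IVF females both came from CF-1 mothers and B6/SJL fathers, and the labels name no other allele or agent. Natural embryos developed in their own mothers after mating. IVF embryos came from superovulated mothers, were cultured to the blastocyst stage and were transferred to pseudopregnant females, so superovulation, fertilization, culture and transfer cannot be told apart in what follows. Pups of the adult cohorts were delivered by Cesarean section and fostered, and parts of the study's methods give a later day of section for IVF than for Natural pregnancies. Whole fetal ovaries at E18.5 came from 4 Natural and 6 IVF females, and ovary pieces from 4 Natural and 5 IVF females at 12 weeks and from 5 Natural and 5 IVF females at 39 weeks. One of the 39-week Natural libraries, replicate 5, is also labelled 40 weeks. Primordial germ cells (PGCs) at E13.5 were pools of 100 cells, with 4 Natural and 5 IVF libraries. Single oocytes numbered 36 Natural and 40 IVF at 12 weeks and 9 Natural and 10 IVF at 39 weeks, and 12-week cumulus cells were pools of 100 cells, with 5 Natural and 5 IVF libraries. Oocytes and cumulus cells were taken from superovulated females.

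The adult ovary holds resident macrophages throughout life, and these cells clear dying follicles and regressing corpora lutea and take part in ovulation. Macrophages are marked by surface receptors, complement C1q and lysosomal proteins, T cells by the CD3 chains with CD4 or CD8, and B cells by CD79 and CD20. Antigen-presenting cells carry peptides on MHC class II molecules, whose subunits are made together with the invariant chain CD74. Chemokines draw leukocytes into the tissue, and Toll-like receptors start the inflammatory response that leads to cytokines such as interleukin 1 beta.

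Levels below are TMM-scaled CPM, that is, counts scaled to the library total and corrected for library composition, and all adult ovaries share this scale. Total counts ranged from 6995713 to 14830788 in E18.5 ovaries, from 2839022 to 43363799 in adult ovaries (the lowest is 12-week IVF replicate 4), from 839781 to 31126357 in single oocytes and from 2532824 to 8675189 in cumulus and PGC pools. Defining markers were in place: 10 oocyte genes such as Gdf9 and Zp3 summed to 15236 to 30995 CPM in the sets of 12-week oocytes and to 0.814 to 35.1 CPM in cumulus pools, and 7 fetal germ cell genes such as Ddx4 and Dazl summed to 2390 to 7777 CPM in PGCs. Libraries of the adult ovary differed in a list of 12 oviduct epithelium genes such as Ovgp1 and Foxj1, which summed to 3487 to 8068 CPM in 12-week Natural, 98.1 to 3073 CPM in 12-week IVF, 65.6 to 275 CPM in 39-week Natural and 76.5 to 195 CPM in 4 of the 5 39-week IVF ovaries. The fifth, IVF replicate 1, was at 9733 CPM. The study's methods state that the ovary libraries came from individuals of different litters. They also allow some littermates in the adult cohorts, so adult libraries may not all come from separate litters. In bulk tissue, fewer cells of a type and less RNA per cell cannot be told apart.

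Summed over all 43 genes, adult ovaries held 1067 to 2588 CPM and E18.5 ovaries 415 to 732 CPM, each set on its own scale. The largest step between fetal and adult tissue was in the MHC class II genes. H2-Aa, H2-Ab1, H2-Eb1 and Cd74 together summed to 7.50 to 36.8 CPM at E18.5 and to 209 to 892 CPM in adult ovaries, with no overlap. Macrophage genes were closer, at 200 to 424 CPM at E18.5 and 415 to 1575 CPM in adults. These sums include Spp1, which is also a gene of luteinized cells. Per kilobase of exon, Spp1 had means of 15.3 and 16.3 CPM in the E18.5 groups and 59.4 to 322 CPM in the adult groups. Because each age stands in its own table, age and table cannot be told apart, and the fetal and adult tables were not tested against each other.

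Per kilobase of exon, which allows genes to be compared, Spp1 had the highest mean of the 43 in 3 of the 4 adult ovary groups and Cd74 in 39-week IVF ovaries. In 12-week Natural ovaries Spp1 had a mean of 154 CPM per kilobase, Cd74 112, Lyz2 71.1 and C1qa 67.9. The T cell genes were at the other end, with Cd3e at 0.248 and Cd8a at 0.0319 CPM per kilobase in the same ovaries. With Spp1 counted among the macrophage genes, macrophage and antigen presentation genes therefore carry most of the signal, and lymphocyte genes rest on few counts.

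The class II genes lie side by side on chromosome 17 (mm10): H2-Ab1 at chr17:34257689-34269419, H2-Aa at chr17:34282744-34287823 and H2-Eb1 at chr17:34305867-34316674. Cd74, which encodes the invariant chain, lies on another chromosome. Class II genes are known to share promoter boxes read by RFX, NF-Y and CIITA, and the 100 bases before the start site are shown for the 2 class II members whose promoter entry holds a Y box, from RefSeq (GRCm38.p6), at chr17:34287824-34287923 on the minus strand for H2-Aa and chr17:34305767-34305866 on the plus strand for H2-Eb1. Capitals mark CTGATTGG, the Y box that NF-Y binds.
H2-Aa: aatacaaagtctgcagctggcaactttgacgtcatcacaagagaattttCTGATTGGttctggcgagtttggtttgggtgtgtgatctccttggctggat
H2-Eb1: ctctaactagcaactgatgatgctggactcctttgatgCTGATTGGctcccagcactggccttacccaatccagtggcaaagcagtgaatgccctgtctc
The motif starts 51 bases before the start site in H2-Aa and 62 bases before it in H2-Eb1. On either strand it is present in 1346 of 32851 promoters of 250 bases before to 50 bases after a start site (4.1%). Of the 43 members 31 had a promoter entry, and 5 of these held the motif (Cxcl10, Cxcl9, H2-Aa, H2-Eb1 and Spp1). H2-Ab1 was among the members without an entry, so its promoter was not searched. A match describes these letters and is not evidence of binding.

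**Figure D1:**
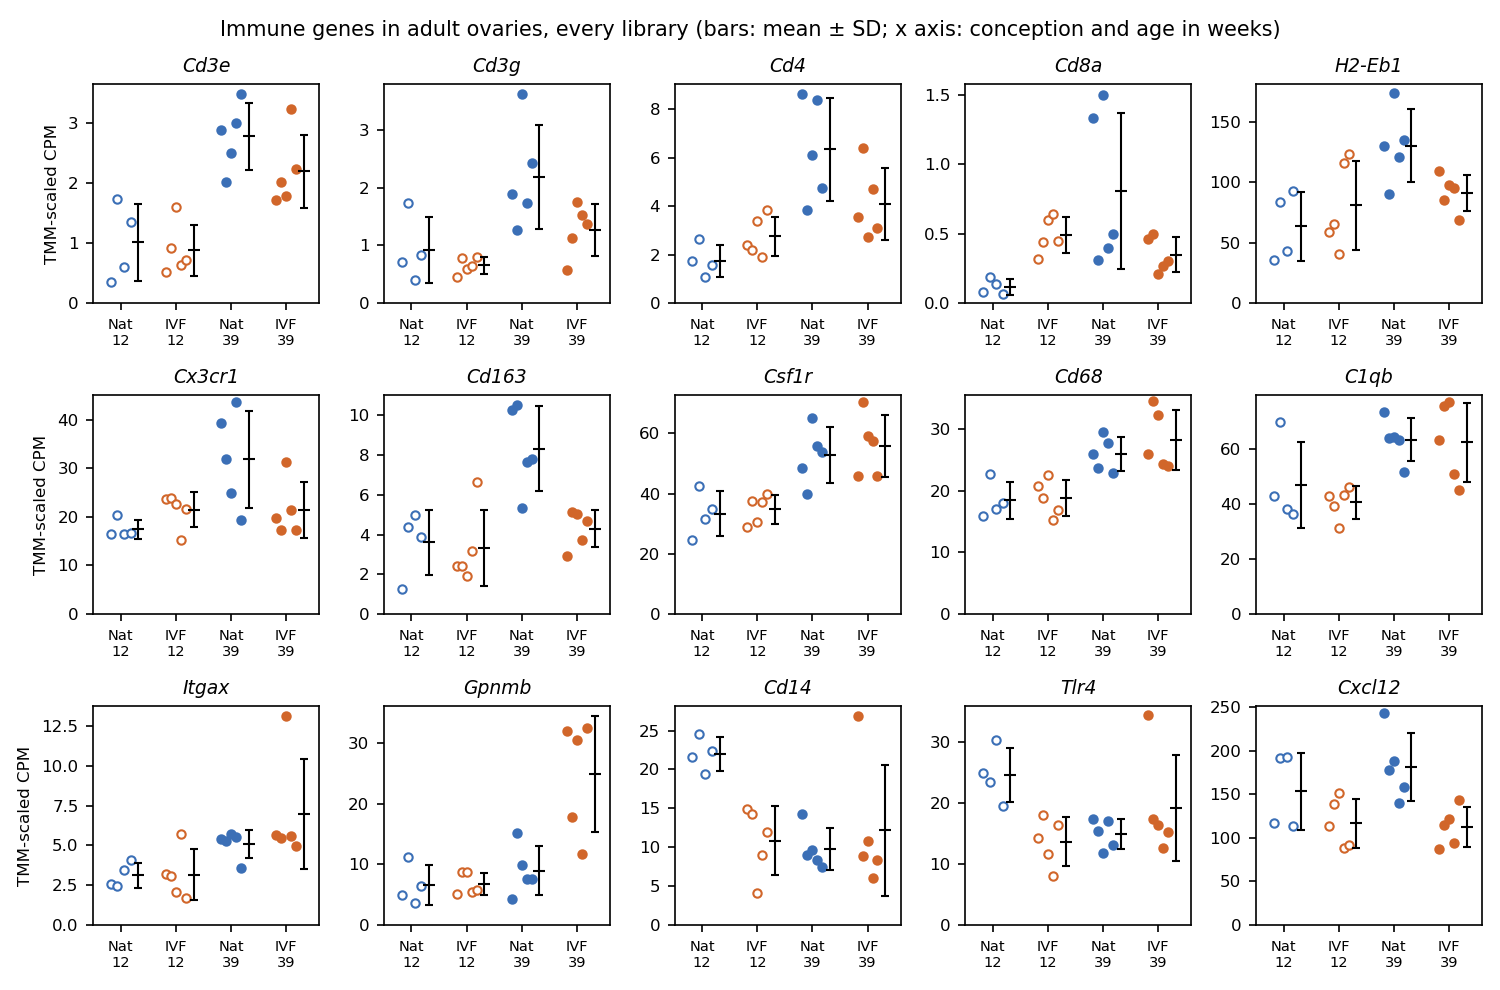
TMM-scaled CPM (linear axes from 0, 1 panel per gene) of member genes in each adult ovary library, by group (Natural and IVF at 12 weeks, open points, and at 39 weeks, filled points), with 1 point per library and a bar for the group mean ± SD. Cd4 lay at 1.07 to 2.63 CPM in 12-week Natural and 3.86 to 8.64 CPM in 39-week Natural ovaries, and Gpnmb at 4.32 to 15.2 CPM in 39-week Natural and 11.7 to 32.5 CPM in 39-week IVF ovaries.

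The comparison of 39-week with 12-week ovaries asked how the genes differ between young and older adults, separately in Natural and IVF females. In Natural ovaries 9 members rose and 1 fell of the 42 tested (edgeR's quasi-likelihood test, Benjamini-Hochberg adjusted p below 0.05), against 10.2% of all 19066 genes higher and 10.3% lower. Lymphocyte genes led: 4 of 6 rose, and their median log2 fold change was 1.35, beside -0.01 over all genes tested. Over all 42 members the median was 0.44, and 33 lay above 0. DESeq2 called 13 members, against 26.2% of all genes. Since a member had to pass a filter on low counts, which Tnf did not, these counts cover the 42 tested. The Natural count rested on single libraries, being 4 to 15 when each ovary was left out in turn.

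T cell genes showed the largest differences. Cd8a, the CD8 co-receptor of cytotoxic T cells, stood at 0.0786, 0.188, 0.134 and 0.0646 CPM in the 12-week Natural ovaries and at 1.33, 0.309, 1.5, 0.399 and 0.497 CPM in the 39-week ones. The groups did not overlap, and the log2 fold change was 2.74 ± 0.54 (SE, adjusted p = 0.00333). Cd4, the co-receptor of helper T cells that some macrophages also carry, read 1.73, 2.63, 1.07 and 1.55 CPM at 12 weeks and 8.64, 3.86, 6.13, 8.37 and 4.75 CPM at 39 weeks. It rose by 1.87 ± 0.34 on the log2 scale (adjusted p = 0.00216), with every 39-week Natural ovary above every 12-week one. Cd3e, a chain of the T cell receptor complex, was at 0.354, 1.73, 0.602 and 1.36 CPM and then at 2.88, 2.01, 2.50, 2.99 and 3.48 CPM, again without overlap (1.46 ± 0.41, adjusted p = 0.0204). Its partner Cd3g rose by 1.25 ± 0.41 (adjusted p = 0.0405), but its lowest 39-week value, 1.27 CPM, lay below its highest 12-week value, 1.73 CPM.

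The calls of Cd4 and Cd8a were kept whichever of the 19 adult ovaries was left out. Cd3e was not called without 12-week Natural replicate 1 or replicate 3, and Cd3g was not called in 7 of these 19 fits, each without a Natural ovary. Both B cell genes, Cd79a and Ms4a1, gave no call. Ms4a1 was also counted in every single oocyte, and the part of oocytes in its ovary level was not tested. The lymphocyte sums and medians given here include it. Cd79a, the signalling chain of the B cell receptor, was at 0.786, 0.891, 0.971 and 0.71 CPM in 12-week Natural and at 0.942, 0.502, 0.626, 1.10 and 0.967 CPM in 39-week Natural ovaries, where the ranges overlap (-0.016). The 6 lymphocyte genes summed to 3.71 to 7.83 CPM in 12-week Natural and 8.84 to 16.3 CPM in 39-week Natural ovaries. Among 13 further T and NK cell genes tested, 1 rose (Cd3d, 1.72 ± 0.50, adjusted p = 0.0235) and none fell, with a median of 0.89. Of 7 further B and plasma cell genes 1 rose, Cd22, an inhibitory receptor of B cells (1.70 ± 0.23, adjusted p = 0.000445), and their median was -0.42.

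Macrophage genes differed less in size. In Natural ovaries 3 of 19 rose and 1 fell, with a median of 0.44. Csf1r, the receptor for the growth factor that keeps macrophages alive, was at 24.5, 42.4, 31.6 and 34.9 CPM at 12 weeks and at 48.6, 40.0, 65.2, 56.0 and 53.8 CPM at 39 weeks. Only 12-week replicate 2 reached into the 39-week range, and the rise was 0.66 ± 0.17 (adjusted p = 0.0144). Cd68, a lysosomal protein of macrophages, read 15.9, 22.7, 17.1 and 18.1 CPM and then 25.9, 23.7, 29.5, 27.8 and 22.8 CPM, and rose by 0.49 ± 0.15 (adjusted p = 0.027) with no overlap. Cd163, the haemoglobin scavenger receptor of resident macrophages, was at 1.26, 4.36, 4.99 and 3.87 CPM and at 10.3, 10.5, 5.32, 7.64 and 7.82 CPM, also without overlap (1.20 ± 0.39, adjusted p = 0.039). The calls of Cd163 and Cd68 were lost in 7 and 5 of the 19 fits that left out an ovary, in each case a Natural one. The erythroid list moved with it: 3 of 6 erythroid genes rose in the same comparison, with a median of 2.57, and whether blood in the tissue has a part in the Cd163 difference was not tested.

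Other macrophage markers were higher on average without passing the test. Adgre1, which encodes F4/80, was at 6.72, 10.7, 6.79 and 6.46 CPM in 12-week Natural and at 15.3, 9.96, 11.6, 12.3 and 11.5 CPM in 39-week Natural ovaries (0.66, adjusted p = 0.0516). Ptprc, the CD45 antigen of all leukocytes, read 7.63, 11.6, 9.00 and 7.75 CPM and then 16.1, 13.7, 15.6, 16.3 and 15.0 CPM, which do not overlap (0.77, adjusted p = 0.0712). C1qa, a chain of complement C1q made by macrophages, was at 58.7, 106, 55.9 and 62.2 CPM and at 112, 99.9, 82.4, 114 and 66.7 CPM (adjusted p = 0.108), and the high 12-week value was again replicate 2. Mrc1, the mannose receptor, was at 15.5, 24.2, 21.1 and 20.6 CPM and at 24.3, 22.2, 27.1, 29.5 and 32.8 CPM (adjusted p = 0.116). Without 12-week Natural replicate 2, Adgre1, C1qa, C1qb, Cd74 and H2-Aa were called as well.

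In all, 6 members were higher in every 39-week than in every 12-week Natural ovary (Cd163, Cd3e, Cd4, Cd68, Cd8a and Ptprc), against 10.6% of all genes. The reverse held for Cd14 and Tlr4, 2 members, against 13.8% of all genes. With CPM that were not scaled for composition the first count was 4.

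Further macrophage lists fixed for this comparison gave related counts. Of 20 genes of macrophage growth and identity 4 rose and 2 fell, with Mpeg1, a pore-forming protein of phagocytes, at 0.91 ± 0.17 (adjusted p = 0.00236) and Cd53, a leukocyte tetraspanin, at -1.04 ± 0.28 (adjusted p = 0.0169). Of 13 genes of lysosome-rich and giant cell macrophages 2 rose and 1 fell: Lgals3, the galectin of activated macrophages, was higher by 1.19 ± 0.36, Lipa, the lysosomal acid lipase, by 0.89 ± 0.15, and Cd9, a tetraspanin also found on epithelia, fell by 1.90 on the log2 scale. Complement genes rose in 5 of 11 cases, led by C2 (1.73 ± 0.37, adjusted p = 0.00505), Serping1 (0.97 ± 0.30) and C1s1 (0.81 ± 0.22), with a median of 0.60.

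Antigen presentation genes lay above 0 in all 4 cases in Natural ovaries, with a median of 0.73, and 1 of the 4 passed the test. H2-Eb1, a class II beta chain, was at 35.8, 83.3, 42.8 and 92.6 CPM at 12 weeks and at 130, 89.9, 174, 121 and 135 CPM at 39 weeks. Of the 39-week ovaries 1, replicate 2, lay below the highest 12-week value, and the rise was 1.03 ± 0.32 (adjusted p = 0.0324), a call lost without 12-week Natural replicate 1 or 3 or 39-week Natural replicate 3 or 5. H2-Ab1, the other beta chain, read 43.4, 114, 56.4 and 75.3 CPM and then 90.5, 74.4, 144, 70.1 and 111 CPM, with broad overlap. Cd74 was at 117, 278, 148 and 211 CPM and at 308, 234, 415, 252 and 321 CPM (0.70, adjusted p = 0.0885). Among 10 accessory genes of class II, Ciita, the master regulator of the class II promoters, rose by 1.30 ± 0.27 (adjusted p = 0.00393), and H2-Ob, which restrains peptide loading in B cells, fell by 1.57 (adjusted p = 0.0329). None of the 9 MHC class I genes was called in Natural ovaries between the ages.

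Chemokine genes as a group were near 0, with 1 of 10 called. Cx3cr1, the fractalkine receptor of tissue macrophages and monocytes, was at 16.4, 20.3, 16.5 and 16.6 CPM in 12-week Natural and at 39.3, 31.9, 24.8, 43.6 and 19.4 CPM in 39-week Natural ovaries. Replicate 5 at 39 weeks lay within the 12-week range, and the rise of 0.87 ± 0.22 (adjusted p = 0.0137) was kept whichever ovary was left out. The annotated span of Cx3cr1 overlaps 9 other genes, and whether reads were counted by strand is not given in the sources used here. Cxcl12, a chemokine of stromal cells, read 117, 191, 192 and 113 CPM and then 243, 178, 188, 140 and 159 CPM, and Ccl5, a chemokine of T and NK cells, read 0.275, 0.844, 0.669 and 0.904 CPM and then 1.44, 0.540, 0.626, 1.13 and 1.44 CPM. Neither passed the test.

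Cd14 was the single member that fell. Cd14, the co-receptor that hands lipopolysaccharide to Toll-like receptor 4, was at 21.6, 24.6, 19.4 and 22.3 CPM in 12-week Natural ovaries and at 14.3, 8.99, 9.70, 8.40 and 7.40 CPM in 39-week Natural ovaries (-1.17 ± 0.38, adjusted p = 0.0378). Tlr4, the receptor itself, read 25.0, 23.5, 30.4 and 19.6 CPM and then 17.3, 15.4, 11.8, 17.1 and 13.1 CPM, without overlap (-0.72 ± 0.26, adjusted p = 0.0588). DESeq2 called both (adjusted p = 0.0127 and 0.0323). The Cd14 call was lost without any 1 of 8 Natural ovaries, among them all 4 of 12 weeks.

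Both genes moved with the oviduct list, of which 9 of 12 genes fell in the same comparison (median -4.20). In 39-week IVF ovaries Cd14 was at 8.83, 10.8, 6.04 and 8.38 CPM in replicates 2 to 5 and at 26.9 CPM in replicate 1, the library with 9733 CPM of oviduct genes. Tlr4 was at 17.4, 16.4, 12.7 and 15.3 CPM in those replicates and at 34.5 CPM in replicate 1. In 12-week IVF ovaries, the lowest oviduct sum, 98.1 CPM in replicate 3, came with the lowest Cd14 value, 4.18 CPM. The lowest Tlr4 value of that group, 7.98 CPM, was in replicate 4, and replicate 3 was at 11.7 CPM. The part of oviduct tissue in the Cd14 and Tlr4 differences was not tested.

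**Figure D2:**
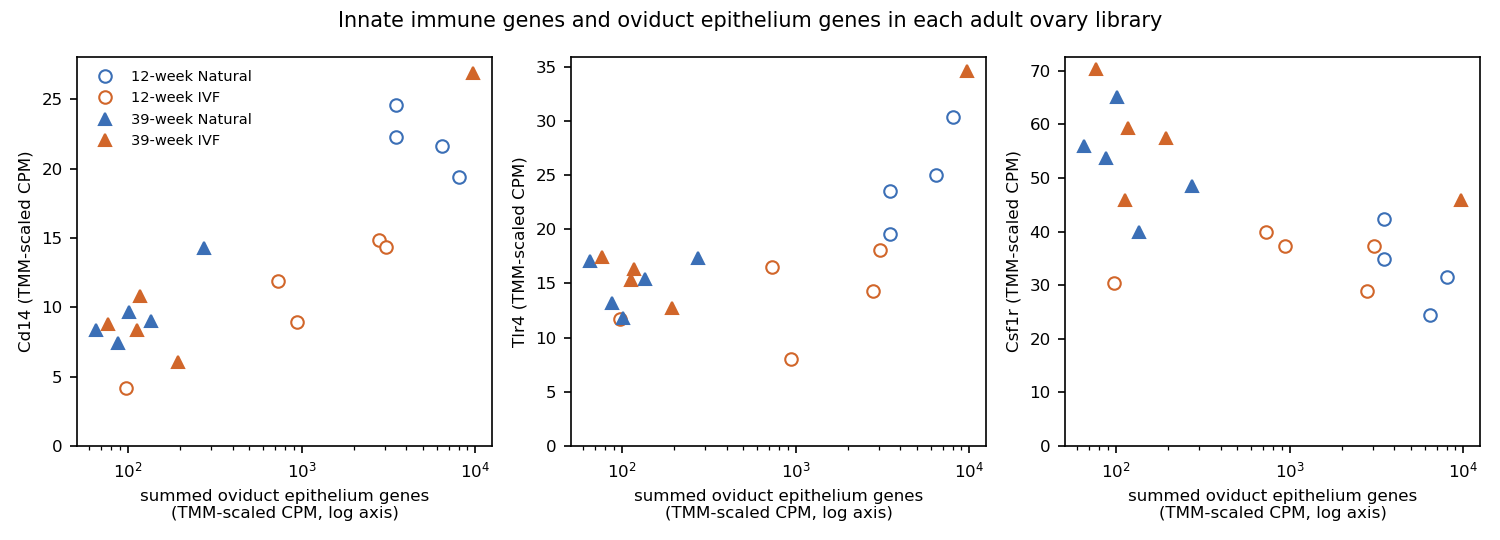
Cd14, Tlr4 and Csf1r (TMM-scaled CPM, 1 panel each) against the summed TMM-scaled CPM of 12 oviduct epithelium genes (log axis), with 1 point per adult ovary library, coloured by conception (open circles at 12 weeks, filled triangles at 39 weeks). The 39-week IVF library at 9733 CPM of oviduct genes has the highest values of its group, 26.9 CPM of Cd14 and 34.5 CPM of Tlr4.

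Il1b, the cytokine interleukin 1 beta, was at 1.38, 2.16, 0.502 and 0.678 CPM in 12-week Natural and at 1.05, 0.0772, 1.00, 0.465 and 1.52 CPM in 39-week Natural ovaries, and the ranges overlap. Of 18 NF-kB and cytokine genes tested 4 rose and 2 fell: Il1rn, the natural antagonist of interleukin 1, fell by 1.30, Il18, another cytokine of the interleukin 1 family, rose by 1.09 ± 0.25 and Tgfb1, an anti-inflammatory growth factor, rose by 0.84 ± 0.27. Of 16 interferon-stimulated genes 1 rose and 3 fell, with Mx2, an antiviral GTPase, at -1.58 ± 0.36, Mx1 at -1.55 ± 0.53 and Ifit1 at -1.02 ± 0.35. Endothelial genes rose in 5 of 7 cases in the same comparison (median 0.75) and luteal genes in 2 of 8 (median 0.80), while oocyte genes fell in 2 of 10 (median -0.70). Their part in the rise of leukocyte genes was not tested.

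In IVF ovaries 5 members rose from 12 to 39 weeks and none fell of the 42 tested, against 4.09% of all genes higher and 2.26% lower. All 5 were macrophage genes, and no lymphocyte, antigen presentation, chemokine or innate gene passed edgeR's test. The median over the 42 was 0.42, beside 0.03 over all genes, and 34 lay above 0. DESeq2 called 8 members, against 13.7% of all genes. Leaving out single ovaries gave 2 to 8 calls. Other cell types moved in the same comparison: oocyte genes fell in 4 of 10 cases (median -1.01), and 6 of 6 erythroid genes lay above 0 (median 1.96), of which edgeR called 0, DESeq2 called 2 and 5 had an unadjusted p below 0.05. The erythroid sum was 35.0 to 461 CPM in 12-week and 116 to 1732 CPM in 39-week IVF ovaries. Their part in the macrophage differences was not tested.

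Gpnmb, a lysosomal membrane glycoprotein of lipid-laden and giant cell macrophages, showed the largest rise. It was at 5.09, 8.74, 8.75, 5.43 and 5.72 CPM in 12-week IVF ovaries and at 32.1, 17.8, 30.5, 11.7 and 32.5 CPM in 39-week IVF ovaries. The groups did not overlap, the log2 fold change was 1.88 ± 0.37 (adjusted p = 0.00871), and the call was kept whichever ovary was left out. In Natural ovaries Gpnmb was at 4.99, 11.3, 3.65 and 6.39 CPM at 12 weeks and at 4.32, 15.2, 9.95, 7.61 and 7.65 CPM at 39 weeks, and it was not called there.

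Itgax, the CD11c integrin of dendritic cells and some macrophages, read 3.23, 3.09, 2.09, 5.75 and 1.70 CPM at 12 weeks and 5.67, 5.45, 13.2, 5.58 and 5.00 CPM at 39 weeks in IVF ovaries (1.19 ± 0.33, adjusted p = 0.0387). The value of 13.2 CPM in replicate 3 stood apart, and without that library Itgax was not called, nor without 12-week IVF replicate 1, 2, 3 or 5 or 39-week IVF replicate 4 or 5. Csf1r was at 29.0, 37.4, 30.4, 37.3 and 40.0 CPM and then at 46.0, 70.3, 59.3, 57.5 and 45.8 CPM (0.68 ± 0.16, adjusted p = 0.021), and the call was lost without 12-week IVF replicate 1 or 3 or 39-week IVF replicate 4. Cd68 read 20.7, 18.8, 22.5, 15.3 and 16.9 CPM and then 25.9, 34.5, 32.2, 24.4 and 24.0 CPM (0.58 ± 0.14, adjusted p = 0.0225), a call lost only without 39-week IVF replicate 2. Both Csf1r and Cd68 were without overlap between the ages. C1qb, a chain of complement C1q, passed by a small margin (0.62 ± 0.18, adjusted p = 0.0499) and lost the call in 15 of the 19 fits that left out an ovary.

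C1qa was at 57.0, 69.5, 54.1, 74.1 and 58.9 CPM in 12-week IVF and at 82.1, 103, 99.2, 81.2 and 79.1 CPM in 39-week IVF ovaries, which do not overlap (0.51, adjusted p = 0.0889). Adgre1 read 6.78, 10.1, 4.58, 9.58 and 9.16 CPM and then 11.6, 12.1, 14.7, 12.7 and 8.41 CPM, and Mrc1 read 15.7, 19.2, 20.1, 28.7 and 21.9 CPM and then 17.9, 31.4, 25.7, 21.8 and 21.6 CPM, with overlap in both. Ptprc was at 7.66, 6.34, 6.47, 6.38 and 11.0 CPM and then at 5.27, 11.7, 22.1, 9.60 and 9.54 CPM, where the 39-week values span the whole 12-week range. Non-overlap in IVF ovaries was seen for 6 members that were higher at 39 weeks (C1qa, C1qc, Cd3e, Cd68, Csf1r and Gpnmb), against 3.8% of all genes, and for 0 members that were lower, against 2.43%. With CPM that were not scaled for composition the first count was 2.

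Among T cell genes of IVF ovaries, Cd3e came closest, at 0.523, 0.915, 1.59, 0.638 and 0.715 CPM and then 1.72, 2.02, 1.78, 3.22 and 2.22 CPM (1.33 ± 0.39, adjusted p = 0.0508). Cd4 was at 2.39, 2.21, 3.38, 1.92 and 3.84 CPM and then at 3.55, 6.39, 2.72, 4.72 and 3.11 CPM (0.56, adjusted p = 0.304). Cd8a was at 0.318, 0.442, 0.597, 0.638 and 0.447 CPM and then at 0.458, 0.498, 0.212, 0.266 and 0.305 CPM, so that here the 39-week values were not the higher ones. The 6 lymphocyte genes had a median of 0.19, and their summed level was 4.66 to 8.16 CPM at 12 weeks and 7.77 to 11.3 CPM at 39 weeks. Cd79a was at 0.477, 1.01, 0.398, 1.28 and 1.25 CPM and then at 1.20, 0.498, 0.756, 0.664 and 0.701 CPM.

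H2-Ab1 was at 44.9, 48.9, 26.4, 109 and 94.9 CPM in 12-week IVF ovaries and at 88.8, 69.6, 89.7, 107 and 61.6 CPM in 39-week IVF ovaries. Cd74 read 134, 152, 103, 237 and 282 CPM and then 340, 242, 293, 294 and 214 CPM (0.61, adjusted p = 0.18). At 12 weeks replicates 4 and 5 were high for both genes, above 12-week Natural replicates 1 and 3. All 4 antigen presentation genes had fold changes above 0, with a median of 0.46. Cxcl12 was at 113, 139, 151, 88.1 and 91.4 CPM and then at 87.1, 115, 122, 94.5 and 144 CPM, Ccl5 at 0.682, 0.726, 1.19, 3.19 and 0.983 CPM and then at 1.03, 0.838, 1.27, 1.13 and 0.305 CPM, and Il1b at 0.318, 0.442, 0.199, 0 and 2.06 CPM and then at 0.516, 0.393, 1.36, 0.664 and 0.609 CPM.

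Of the 20 genes of macrophage growth and identity 5 rose in IVF ovaries and none fell, led by Mpeg1 (0.90 ± 0.16, adjusted p = 0.00532), Laptm5, a lysosomal protein of leukocytes (0.87 ± 0.16), and Ctss, the cathepsin that trims the invariant chain (0.75 ± 0.20), which was also the single call of 10 class II accessory genes. Ctsd, a lysosomal protease, was the single call of 13 lysosome-rich genes (0.47 ± 0.12). Serping1, the C1 inhibitor, was the single call of 11 complement genes (1.17 ± 0.28), and Mx2 the single call of 16 interferon-stimulated genes (-1.22 ± 0.35). T and NK cell, B and plasma cell, MHC class I and NF-kB lists gave no call.

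**Figure D3:**
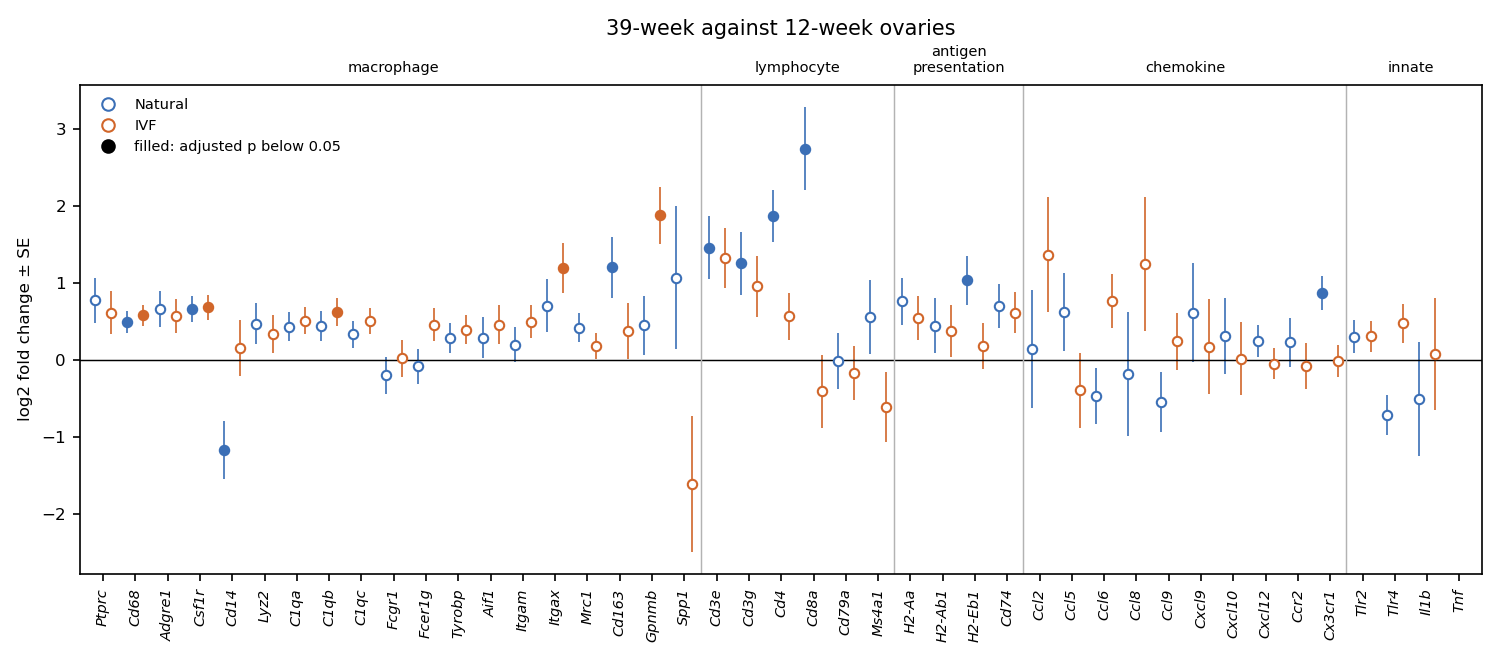
Log2 fold change of each tested member between 39-week and 12-week ovaries, with its SE, in Natural and in IVF females, ordered by group. Filled points passed edgeR's test at an adjusted p below 0.05: 9 rose and 1 fell in Natural and 5 rose in IVF ovaries.

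The remaining members gave no call between the ages. Among macrophage genes, Tyrobp and Fcer1g, which encode signalling adaptors of myeloid receptors, lay at 7.98 to 20.6 CPM and 5.97 to 17.3 CPM over all adult ovaries, Fcgr1, a high-affinity Fc receptor, at 3.26 to 7.66 CPM, Aif1, an actin-binding protein of macrophages, at 3.19 to 10.4 CPM, and Itgam, the CD11b integrin, at 4.97 to 15.3 CPM. C1qc, the third C1q chain, lay at 34.7 to 75.1 CPM and Lyz2, the lysozyme of myeloid cells, at 68.8 to 199.8 CPM. None of these 7 passed edgeR's test in either age contrast.

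Of the chemokine group, Ccr2, the receptor that brings monocytes out of the blood, lay at 5.11 to 16.4 CPM in adult ovaries and Ccl9, a myeloid chemokine, at 1.99 to 11.9 CPM. Ccl2, the ligand of Ccr2, lay at 0 to 10.5 CPM, Ccl8 at 0.0894 to 3.45 CPM, and the interferon-induced Cxcl9 and Cxcl10 at 0 to 2.87 CPM and 0.363 to 3.50 CPM. Tlr2, a receptor for bacterial lipoproteins, lay at 3.83 to 9.26 CPM, and Tnf, the cytokine, at no more than 0.665 CPM. Ms4a1 lay at 0 to 1.59 CPM. The ranges span all 4 groups, and 8 of these 9 genes, all but Tnf, were tested.

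The difference between Natural and IVF ovaries in how they changed with age was tested as an interaction. No member passed edgeR's test (0 of 42), against 0.0157% of all genes. At an unadjusted p below 0.05 there were 7, against 20.1% of all genes, and DESeq2 called 1, Tlr4, against 7.25%. In order of p these 7 were Cd8a at -3.15 ± 0.72 (adjusted p = 0.0749), Tlr4 at 1.19 ± 0.36 (adjusted p = 0.113), Cx3cr1 at -0.88 ± 0.30, Cd4 at -1.30 ± 0.45, Gpnmb at 1.43 ± 0.52, Cd14 at 1.32 ± 0.52 and Ccl6 at 1.24 ± 0.50. Spp1, at -2.68 ± 1.28 (adjusted p = 0.253), was second to Cd8a in size but not among the 7. That a gene was called between the ages in Natural but not in IVF ovaries, or the reverse, is therefore not shown to be a difference between them. All 6 lymphocyte genes had interactions below 0, with a median of -0.74, beside 0.00 over all genes. The 6 include Ms4a1, which was also counted in every single oocyte. Of 13 further T and NK cell genes 2 lay above 0 (median -0.46). Of 7 further B and plasma cell genes 4 lay above 0 (median 0.42), so that list did not share the direction.

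The comparison of IVF with Natural ovaries within an age gave no call among the members at any of the 3 ages with edgeR. At 12 weeks 0 of 42 were called, against 0.00567% of all genes, 4 had an unadjusted p below 0.05, against 14.4%, and DESeq2 called 3, against 3.96%. The median log2 fold change of the members was -0.17, beside 0.01 over all genes, and 15 lay above 0.

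At 12 weeks Cd8a was higher in IVF ovaries without overlap, with 0.318 to 0.638 CPM against 0.0646 to 0.188 CPM in Natural (1.95 ± 0.45, adjusted p = 0.152). It was the 1 member higher without overlap, against 2.21% of all genes. Cd8a passed the filter on low counts only through its IVF values, so the lack of overlap is not independent of that filter. Of the 9 fits that left out an ovary, Cd8a was tested in only 5. Lower without overlap were 3 members, Cd14, Ccl6 and Tlr4, against 3.64% of all genes, and these were the 3 that DESeq2 called. Ccl6, a chemokine of myeloid cells, was at 8.88, 17.6, 8.17 and 8.46 CPM in Natural and at 4.21, 5.65, 2.19, 5.75 and 6.39 CPM in IVF ovaries (-1.16 ± 0.35, adjusted p = 0.21). Cd14 was at 14.9, 14.3, 4.18, 8.94 and 11.9 CPM in the IVF ovaries, below the 19.4 to 24.6 CPM of the Natural ones (-0.99 ± 0.31, adjusted p = 0.216). Tlr4 was at 14.3, 18.0, 11.7, 7.98 and 16.5 CPM, below 19.6 to 30.4 CPM (-0.81 ± 0.22, adjusted p = 0.175). As given above, the same IVF ovaries held less of the oviduct list, at 98.1 to 3073 CPM against 3487 to 8068 CPM, and its part was not tested.

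Apart from Tlr4, the defining markers overlapped between 12-week Natural and IVF ovaries. Ptprc averaged 9.00 ± 1.86 CPM (SD, n = 4) in Natural and 7.58 ± 2.01 CPM (SD, n = 5) in IVF, Csf1r 33.3 ± 7.45 and 34.8 ± 4.82 CPM, C1qa 70.6 ± 23.4 and 62.7 ± 8.60 CPM, and Cd74 189 ± 71.3 and 182 ± 74.7 CPM. With the levels of each ovary as given for the ages, the log2 fold changes were 0.063 for Adgre1, 0.038 for Mrc1, 0.034 for Gpnmb, -0.22 for Cd3e, 0.020 for Cd79a, -0.17 for H2-Ab1, 0.77 for Ccl5, -0.40 for Cxcl12 and -0.76 for Il1b, with adjusted p of 0.426 to 0.99. Macrophage genes had a median fold change of -0.16 and antigen presentation genes of -0.01. Lymphocyte genes had a median of 0.35 and chemokines of -0.40, of which 2 of 10 lay above 0. The dendritic cell list summed to 36.2 to 53.1 CPM in Natural and 40.1 to 64.2 CPM in IVF ovaries. The pathway lists gave no call at 12 weeks, and 6 of 16 interferon-stimulated genes had an unadjusted p below 0.05, with a median of -0.59.

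At 39 weeks 0 of 42 members were called, against 0.262% of all genes. An unadjusted p below 0.05 was reached by 8, against 19.2%, and DESeq2 called 3, against 7.71%. The median was -0.17, beside 0.03 over all genes, and 11 members lay above 0.

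Gpnmb was higher in 39-week IVF ovaries, at 24.9 ± 9.58 CPM (SD, n = 5) against 8.95 ± 4.05 CPM (SD, n = 5) in Natural, and 1 value of each group reached into the other. The log2 fold change was 1.48 ± 0.37 and edgeR's adjusted p 0.0985, while DESeq2 called it (adjusted p = 0.0032). The further genes of lysosome-rich and giant cell macrophages did not move with Gpnmb as a list. Of 11 tested, 5 lay above 0 (median -0.12), and edgeR called 0 and DESeq2 2. Cd163 was lower, with 2.92, 5.13, 5.05, 3.72 and 4.69 CPM in IVF, all below the 5.32 to 10.5 CPM of Natural ovaries (-0.95 ± 0.24, adjusted p = 0.1, DESeq2 0.00412). It was the 1 member lower without overlap, against 2.86% of all genes, and 0 were higher without overlap, against 2.11%. Cxcl12 was lower as well, at 87.1 to 144 CPM in IVF and 140 to 243 CPM in Natural ovaries (-0.69 ± 0.17, adjusted p = 0.0954, DESeq2 0.00608). Only IVF replicate 5, at 144 CPM, lay above the lowest Natural value.

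Spp1, which encodes osteopontin, a secreted phosphoprotein of macrophages and of luteinized cells, was at 998, 279, 244, 860 and 270 CPM in Natural and at 274, 23.8, 12.0, 54.5 and 126 CPM in IVF ovaries at 39 weeks (-2.43 ± 0.82, adjusted p = 0.167). Its levels differed widely within groups, also at 12 weeks, where Natural ovaries held 36.8 to 499 CPM and IVF ovaries 24.9 to 527 CPM. The luteal list moved with it at 39 weeks, at 23076 to 39415 CPM in Natural and 12464 to 29225 CPM in IVF ovaries, and its part was not tested.

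The 6 lymphocyte genes, with Ms4a1 among them, all had fold changes below 0 at 39 weeks, with a median of -0.50. Among 10 further T and NK cell genes tested 2 lay above 0 (median -0.38). The B and plasma cell list went the other way, with 4 of 5 genes above 0 (median 0.27). Cd8a was at 0.309 to 1.5 CPM in Natural and 0.212 to 0.498 CPM in IVF ovaries (-1.17 ± 0.51, adjusted p = 0.247), and Cd4 at 3.86 to 8.64 CPM and 2.72 to 6.39 CPM (-0.63, adjusted p = 0.287). H2-Eb1 was at 89.9 to 174 CPM and 69.0 to 109 CPM (-0.51 ± 0.17, adjusted p = 0.169), and Cx3cr1 at 19.4 to 43.6 CPM and 17.2 to 31.2 CPM (-0.57, adjusted p = 0.24). None of these sets of values was free of overlap. The dendritic cell list was at 68.7 to 73.3 CPM in Natural and 31.9 to 59.6 CPM in IVF ovaries, and its part in the H2-Eb1 difference was not tested. Ptprc averaged 15.3 ± 1.05 CPM (SD, n = 5) in Natural and 11.6 ± 6.29 CPM (SD, n = 5) in IVF ovaries, where replicate 3 reached 22.1 CPM. Of the other defining markers, with levels as given for the ages, the log2 fold changes were 0.085 for Csf1r, -0.023 for Adgre1, -0.093 for C1qa, -0.20 for Mrc1, -0.34 for Cd3e, -0.13 for Cd79a, -0.23 for H2-Ab1, -0.14 for Cd74, -0.18 for Ccl5, 0.37 for Tlr4 and -0.20 for Il1b, with adjusted p of 0.456 to 0.957. Across the pathway lists the single call was Tapbp, which loads peptides onto MHC class I (-0.65 ± 0.10, adjusted p = 0.0303).

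**Figure D4:**
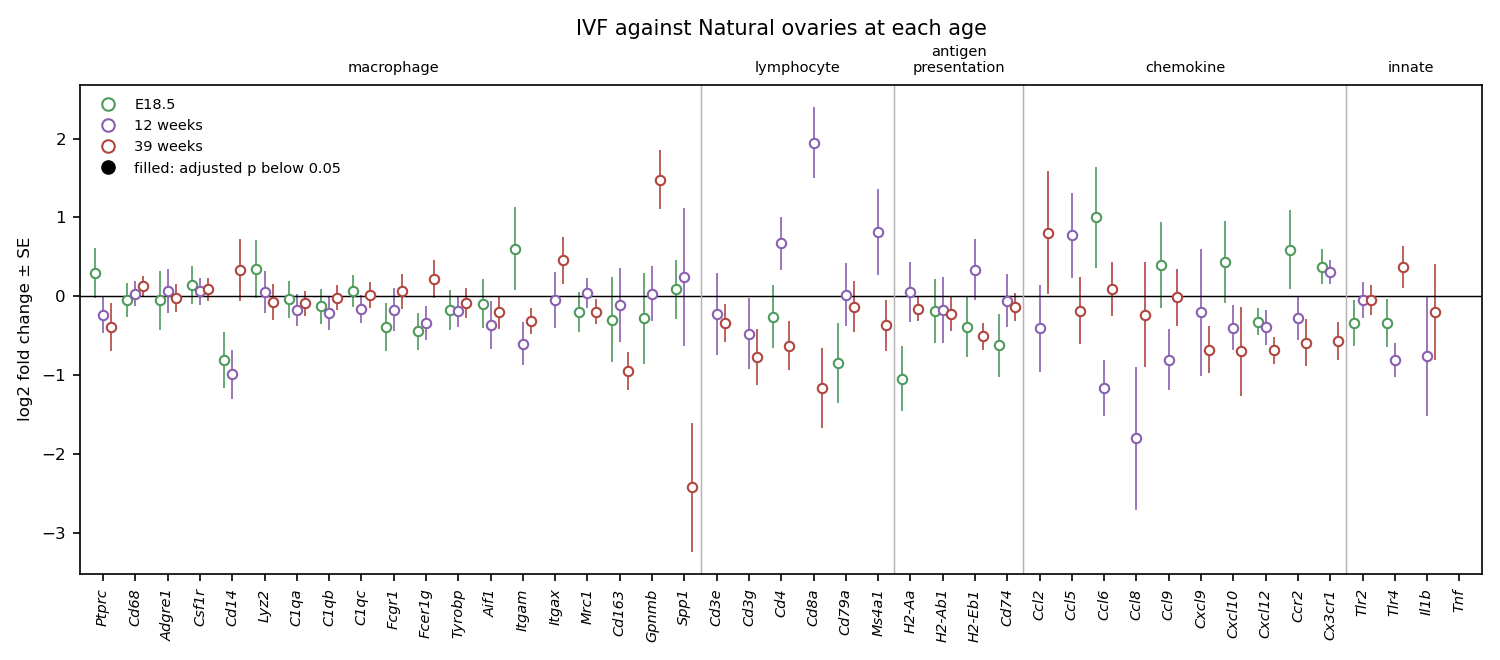
Log2 fold change of each tested member between IVF and Natural ovaries, with its SE, in fetal (E18.5), 12-week and 39-week females. No member passed edgeR's test at any age, and Spp1 (-2.43) and Gpnmb (1.48) lie farthest from 0 at 39 weeks.

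In E18.5 ovaries 32 of the 43 members passed the filter on low counts, among them 18 of 19 macrophage genes and 2 of 6 lymphocyte genes. No member was called (0 of 32), against 5.43% of all genes. An unadjusted p below 0.05 was reached by 2, against 24.1%, and DESeq2 called 0, against 12% of all genes. H2-Aa, the class II alpha chain, was at 1.99, 2.17, 1.69 and 6.34 CPM in Natural, and at a lowest 1.00, median 1.53 and highest 1.93 CPM in the 6 IVF ovaries (-1.05 ± 0.41, adjusted p = 0.142). Natural replicate 4 was high for H2-Aa, and also for H2-Ab1 at 7.15 CPM against 1.99 to 2.59 CPM in the other Natural ovaries and 2.00 to 5.40 CPM in the IVF ovaries. Cd14 was at 6.31, 5.43, 11.4 and 5.26 CPM in Natural and at 1.83 to 6.16 CPM, with a median of 4.55 CPM, in IVF ovaries (-0.81 ± 0.36, adjusted p = 0.189).

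Resident macrophage genes were already present before birth. Csf1r was at 67.0, 31.8, 40.2 and 50.3 CPM in Natural E18.5 ovaries and at 32.9 to 68.2 CPM (median 54.7) in IVF ones. Mrc1 was at 63.9, 23.8, 32.8 and 30.8 CPM and at 23.6 to 48.1 CPM (median 32.2), and C1qa at 43.1, 25.9, 28.1 and 38.9 CPM and at 20.3 to 54.5 CPM (median 31.6). The ranges overlap for all 3 genes. Ptprc was at 5.07, 2.72, 2.19 and 3.10 CPM and at 2.42 to 5.58 CPM (median 3.87), and Cxcl12, the most abundant chemokine of the set at this age too, at 278, 177, 193 and 284 CPM and at 148 to 245 CPM (median 180).

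Cd74 was at 4.90, 7.96, 4.88 and 18.9 CPM in Natural and at 3.50 to 9.66 CPM (median 5.25) in IVF ovaries, and Tlr4 at 15.4, 5.43, 12.4 and 5.67 CPM and at 5.32 to 9.45 CPM (median 7.43). Gpnmb was low, at 1.25, 0.362, 0.398 and 1.75 CPM and at 0.215 to 1.5 CPM (median 0.742). All of these overlap. Adgre1 was at 12.6, 3.89, 5.97 and 5.47 CPM in Natural and at 4.09 to 11.0 CPM (median 5.15) in IVF ovaries, and Cd79a at 2.08, 1.63, 1.79 and 0.877 CPM and at 0.166 to 1.75 CPM (median 0.876). Cd3e was at 0, 0.181, 0.199 and 0 CPM in Natural and at most at 0.498 CPM in IVF ovaries, Ccl5 at 0.0831, 0.181, 0 and 0.405 CPM and at most at 0.197 CPM, and Il1b at 0, 0.905, 0 and 0.270 CPM and at most at 0.393 CPM. These 3 genes were among the 11 members that did not pass the filter at this age, with Cd3g, Cd8a, Ms4a1, Itgax, Ccl2, Ccl8, Cxcl9 and Tnf.

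Although no member was called at E18.5, related genes were, beside 5.43% of all 16415 genes called by edgeR in either direction. Of 9 MHC class I genes 3 fell, H2-K1 (-1.32 ± 0.25, adjusted p = 0.0143), Psmb8, an inducible proteasome subunit (-1.09 ± 0.28), and B2m, the light chain of class I (-0.82 ± 0.16), with a median of -0.82 for the list. Interferon-stimulated genes fell in 2 of 14 cases (Bst2, -1.08 ± 0.14, and Irf1, -0.51 ± 0.13), complement in 1 of 11 (C3, -1.78 ± 0.36), and NF-kB and cytokine genes in 2 of 13 (Ackr3, a scavenger of Cxcl12, -0.89 ± 0.19, and Nfkbia, -0.49 ± 0.13). Il34, a second ligand of Csf1r, fell by 1.59 (adjusted p = 0.0302). Lgals3 and Cd9 fell among 9 lysosome-rich genes (-1.27 ± 0.30 and -0.74 ± 0.12), and of 8 class II accessory genes Ifi30 fell and Rfx5 rose (-0.63 ± 0.12 and 0.57 ± 0.10). The CF-1 and B6/SJL parents can carry different H2 alleles, which can change how reads of class I and class II genes map.

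Erythroid genes differed between the same fetal groups, with 3 of 7 higher in IVF and summed levels of 603 to 1600 CPM in Natural and 1618 to 4628 CPM in IVF ovaries. Oocyte genes fell in 4 of 9 cases, with a median of -1.81 and sums of 219 to 714 CPM in Natural and 46.4 to 265 CPM in IVF ovaries. Their part in the class I and interferon differences was not tested, and a difference in day of collection cannot be told apart from conception here.

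In E13.5 PGCs 5 of 43 members passed the filter and 0 were called, against 0% of all genes by edgeR. The count at an unadjusted p below 0.05 was also 0, against 2.73% of all genes, and DESeq2 called 0, against 0% of all genes. All 43 members together summed to 12.3 to 116 CPM, and the most abundant was Spp1, with a mean of 47.3 ± 28.6 CPM (SD, n = 4) in Natural and 45.3 ± 22.4 CPM (SD, n = 5) in IVF. Cd74 was at 0 in all 4 Natural and in 4 of 5 IVF pools. Ptprc was at 0, 1.67, 1.78 and 0 CPM in Natural and at 0.590, 0.335, 0, 0.342 and 0 CPM in IVF pools, so few leukocyte reads were in these pools.

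Single oocytes at 12 weeks gave counts in every one of the 76 cells for 4 members only: Mrc1, Gpnmb, Spp1 and Ms4a1. The same 4 were the members counted in all 19 oocytes at 39 weeks. In contrast 34 of 43 members were counted in under 50% of 12-week oocytes and 29 of 43 at 39 weeks. Depth differed between the ages. Median totals were 5476703 (Natural) and 5055610 (IVF) at 12 weeks and 12276020 (Natural) and 18035837 (IVF) at 39 weeks. The part of depth in these detection counts was not tested. No count was found for Ccl5, Cxcl9, Cxcl10 and Tnf in 12-week oocytes, nor for Cd3e, Ccl5 and Il1b in 39-week oocytes. For a gene at 0 in 36 pooled Natural oocytes a count of 0 allows up to 0.0143 CPM, from 3 counts of the pooled total.

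Ms4a1, which encodes the B cell antigen CD20, was counted in every oocyte of both ages. Pooled over the cells it stood at 192 CPM in 36 Natural and 163 CPM in 40 IVF oocytes at 12 weeks, and at 78.0 CPM in 9 Natural and 148 CPM in 10 IVF oocytes at 39 weeks. Per cell it ranged from 22.6 to 294 CPM (median 180) and from 28.9 to 256 CPM (median 155) at 12 weeks, and from 32.1 to 157 CPM (median 81.2) and from 115 to 226 CPM (median 137) at 39 weeks. Cd79a, the other B cell gene of the set, was counted in 10 of 76 and in 10 of 19 oocytes, at unequal depths. Its medians were 0 CPM in both 12-week groups. In 12-week ovaries Ms4a1 was at 0 to 1.59 CPM and in cumulus pools at 0 to 5.76 CPM. The gene (chr19:11249675-11266241, minus strand) overlaps an antisense gene, 4930526L06Rik, and without strand their reads cannot be told apart.

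H2-Aa was counted in 73 of 76 oocytes at 12 weeks and in 18 of 19 at 39 weeks. H2-Ab1, the beta chain that pairs with H2-Aa, was counted in 17 of 76 and 11 of 19, and Cd74 in 24 of 76 and 9 of 19. These counts too are at unequal depths. At 12 weeks the median H2-Aa level was 3.56 CPM in Natural (0 to 28.2) and 7.77 CPM in IVF oocytes (1.66 to 20.2). At 39 weeks it was 9.20 CPM in Natural (0 to 92.6) and 40.7 CPM in IVF oocytes (18.1 to 95.6). The pooled 39-week levels were 12.0 CPM (95% exact Poisson interval 11.3 to 12.6) and 50.2 CPM (49.2 to 51.3), intervals that cover counting error only. No donor is named for the 39-week oocytes, so each group counts as 1 sample, and this difference has no test. In the 12-week sets, which were tested, H2-Aa was at 22.9, 4.55, 2.18, 7.04 and 4.54 CPM in Natural and at 5.91, 9.99, 4.93, 6.05 and 12.9 CPM in IVF.

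Other members rested on a few oocytes. Of all Cd74 counts in 12-week Natural oocytes 62.7% came from 1 cell, and in 39-week IVF oocytes 95.5% of Cd163 counts and 92.9% of H2-Ab1 counts did. Spp1 was uneven as well, at 1.08 to 11409 CPM (median 107) in 12-week Natural and 1.10 to 4169 CPM (median 85.0) in 12-week IVF oocytes. Mrc1 ranged only from 1.31 to 25.0 CPM (median 10.1) and from 4.98 to 46.0 CPM (median 9.86). In the same 12-week oocytes Gpnmb ranged from 2.48 to 20.2 CPM (median 4.54) and from 1.73 to 37.8 CPM (median 4.97).

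**Figure D5:**
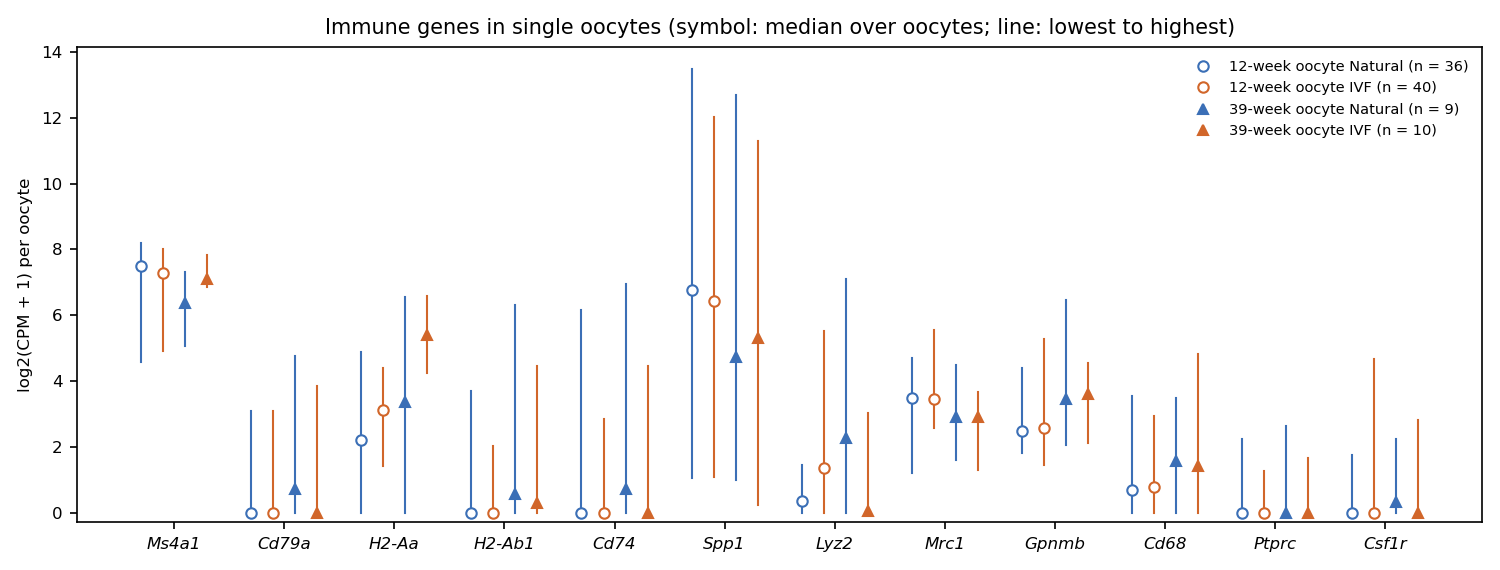
Level of member genes in single oocytes as log2(CPM + 1), with a symbol at the median over oocytes and a line from the lowest to the highest oocyte, for Natural and IVF at 12 (circles) and 39 weeks (triangles). Ms4a1 has counts in every oocyte, with medians of 180, 155, 81.2 and 137 CPM, and H2-Aa in 39-week IVF oocytes has a median of 40.7 CPM.

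For the test at 12 weeks, counts were summed per set of oocytes named alike, with 5 Natural and 5 IVF sets. Names of the Natural sets begin with 35 or 92 and those of the IVF sets with 126 or 127. This first number and conception cannot be told apart. What the number stands for is not given, and sets that share it may not be independent. Of 14 members that passed the filter 0 were called by edgeR, against 0.0277% of all genes, 3 had an unadjusted p below 0.05, against 6.67%, and DESeq2 called 1, against 0.319%. That member was Lyz2, lysozyme 2 of myeloid cells, at 0.880, 0.613, 0.218, 0.386 and 0.231 CPM in Natural and at 2.05, 8.53, 5.90, 1.65 and 0.613 CPM in IVF sets (2.96 ± 0.67, edgeR's adjusted p = 0.451, DESeq2 0.00166). The other members with an unadjusted p below 0.05 were Cd163 (2.10 ± 0.77) and Spp1 (-1.75 ± 0.64), each with an adjusted p of 0.699. With no filter beyond 1 count edgeR also called Lyz2. The erythroid list moved the same way between these sets: 5 of 5 genes tested lay above 0, with a median of 1.77, and 4 had an unadjusted p below 0.05, though none was called by edgeR or DESeq2. It summed to 19.5 to 73.8 CPM in Natural and 7.31 to 357 CPM in IVF sets, and its part in the Lyz2 difference was not tested. In the 39-week oocytes Lyz2 was at 24.0 CPM pooled in Natural and 1.87 CPM in IVF, the opposite order.

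Cumulus cells stood apart from every other sample by Spp1. It was the most counted gene of the whole library in all 10 pools, with 14.2%, 23.3%, 24.1%, 28.8% and 32.6% of all counts in the Natural and 16.1%, 17.4%, 18.54%, 20.6% and 37.2% in the IVF pools, from lowest to highest. The means were 24.6% ± 6.94 (SD, n = 5) and 22.0% ± 8.68 (SD, n = 5), which overlap widely, and the next gene of a pool held at most 4.11% of its counts in Natural and 3.98% in IVF. Such a share lowers the unscaled CPM of all other genes of the pool. TMM scaling is meant to correct for differences in composition between the pools.

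Other members in the cumulus pools were variable. Lyz2 ranged from 64.7 to 2265 CPM in Natural and from 131 to 4300 CPM in IVF pools, and Cd74 from 20.3 to 276 CPM and from 32.4 to 255 CPM. Adgre1 was at 0 to 8.91 CPM and 0 to 2.93 CPM, Csf1r at 2.88 to 13.9 CPM and 0.703 to 12.4 CPM, and H2-Ab1 at 3.70 to 35.3 CPM and 2.3 to 51.4 CPM. Ptprc was at 1.05 to 8.77 CPM and 1.63 to 4.94 CPM, so counts of this leukocyte gene were present in all 10 pools.

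Of 23 members tested between IVF and Natural cumulus cells 0 were called by edgeR, against 0.00903% of all genes. The count at an unadjusted p below 0.05 was also 0, against 5.97% of all genes, and DESeq2 called 0, against 0.506% of all genes. Fold changes lay below 0 for 21 of the 23, with a median of -0.62, beside 0.00 over all genes, and the smallest p belonged to H2-Aa (-1.37 ± 0.69, adjusted p = 0.863). All 4 erythroid genes tested lay above 0, with a median of 1.45, and edgeR and DESeq2 called 0 of them, with 3 at an unadjusted p below 0.05. With no filter beyond 1 count, edgeR called 2 members, H2-Aa and C1qb. One Natural pool has a name that shares its first fields with a set of IVF oocytes, and without it the count of calls was also 0.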

How the data were processed

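The authors deposited raw counts of reads per gene for each library, without normalization, in 7 tables, and 143 of the 151 labelled samples had a column; the others were not analysed here. The submitters' processing notes name STAR 2.3.0e, Trimmomatic 0.32, featureCounts 1.5.0, DESeq2 and mm10, and the methods name trimgalore, STAR and featureCounts for the low-input libraries. Whether counting used strand is not given in the sources used here. Between 65.1% and 78.4% of the counts from 1 to 50 in a table were even, so mates of a pair appear to be counted separately and Poisson intervals are too narrow.

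Groups came from the labels. Each comparison was fitted on the whole table with edgeR 4.0.16 (R 4.3.3): TMM normalization, filterByExpr, quasi-likelihood tests and Benjamini-Hochberg adjustment, two-sided, called below 0.05. The 19 adult ovaries shared a fit for the age contrasts and the interaction, single 12-week oocytes were summed per set, and the cumulus fit held the style of library name as a covariate. DESeq2 1.42.0 (Wald test) was an alternative, as were size factors, filters on low counts, leaving out each library and the replicate block; their values are given at the end. Adjusted p values that DESeq2 gave as NA were left out. The oocyte sets were read from library names. P values measure the spread between these samples, and intervals and limits (3 counts for a count of 0, level 95%) cover counting error only.

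All 43 genes were accounted for, called members and 14 defining markers were named in each ovary comparison, and up to 3 called genes were named for each list, except that a gene of these lists is not reported here. The genes, the lists and the tests were chosen with earlier results of these data known. The scripts were tested on simulated data, and figures were drawn with matplotlib 3.10.9. Gene positions and exon lengths came from GENCODE for mm10, and promoters from RefSeq for GRCm38.p6.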

Additional observations from a re-analysis of the deposited data

Results flagged for a closer look

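Within groups of 4 to 6 samples, 27 of 218 sets of member values (12.4%) had a sample far from the others. Dixon's ratio of the gap to the range was above its 95% critical value in each. That level assumes independent values with a normal distribution. These sets share libraries and were not transformed, so the 12.4% cannot be set against a rate given by chance. The values are TMM-scaled CPM.

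In 12-week Natural ovaries replicate 2 was the high sample for Adgre1 (10.7), C1qa (106), C1qc (64.7), Ccl6 (17.6) and Cx3cr1 (20.3). In 12-week IVF ovaries replicate 5 was high for Ptprc (11), Cd163 (6.66) and Il1b (2.06), while replicate 4, the library with the fewest counts, was high for Ccl5 (3.19) and low for Cx3cr1 (15.3).

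In 39-week IVF ovaries replicate 1 was high for Cd14 (26.9), Tlr4 (34.5) and the summed innate receptors and cytokines (41), and it is also the library with 9733 CPM of oviduct genes. Replicate 3 was high for Itgax (13.2) and Il1b (1.36). In 39-week Natural ovaries replicate 5, which carries the second age label, was low for Itgax (3.56).

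At E18.5 Natural replicate 4 was high for H2-Aa (6.34), H2-Ab1 (7.15), the summed antigen presentation genes (36.8) and Cd8a (0.54), and Natural replicate 3 for Cd14 (11.4) and Cxcl9 (0.199). IVF replicate 6 was high for C1qa (54.5) and Itgam (17.1), and IVF replicate 3 for Cd3g (0.664) and Cd8a (1.16). For Cd8a in both groups and for Cxcl9 all other samples were at 0, so these rest on a few counts. In cumulus cells IVF replicate 3 was high for Spp1 (429548).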

How the results depend on the processing

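No called member changed direction under any alternative run, and DESeq2 size factors in edgeR kept every call. The counts of called members moved as follows. The DESeq2 Wald test called 3 members between IVF and Natural ovaries at 12 weeks, 3 at 39 weeks, 1 in 12-week oocytes, 8 between the ages in IVF ovaries and 1 for the interaction. With no filter but 1 count in any library the counts were 1 in oocytes (Lyz2), 2 in cumulus cells (C1qb and H2-Aa), 6 between the ages in Natural and 2 in IVF ovaries, and with at least 10 counts in every library 6 in Natural ovaries. Leaving out each library in turn gave 4 to 15 calls in Natural and 2 to 8 in IVF ovaries between the ages, and 0 in every other comparison. The Natural count was 15 without 12-week Natural replicate 2 and fell by more than 1.5 times without 12-week Natural replicates 1, 3 or 4 or 39-week Natural replicates 3, 4 or 5, and the IVF count moved by more than 1.5 times without 12-week IVF replicates 1, 2, 3 or 5, 12-week Natural replicate 2 or 39-week IVF replicates 1 to 4. The causes were not tested.

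Same-number correlations of deviations between Natural and IVF samples ran from -0.36 to 0.54. No correlations of unlike numbers were set beside them, so whether replicate numbers pair the samples is not decided. With the number as a block, Cd163 (adjusted p = 0.0512) and Cd3g (0.0692) in Natural and C1qb (0.0643) in IVF ovaries lost their calls, C1qa in Natural ovaries gained one (log2 fold change 0.52), no other call changed, and uncalled genes changed sign: Gpnmb at E18.5 (0.27), Adgre1 (-0.031), Cd3e (0.041) and Cd79a (-0.27) at 12 weeks and Il1b at 39 weeks (0.051). Without both 39-week IVF replicate 1 and 12-week IVF replicate 4, an alternative chosen after seeing the data, C1qb lost its call (0.0586), and in IVF ovaries between the ages Ccl5 turned to 0.012 and Il1b to -0.017. Cd79a at 12 weeks was -0.0046 with DESeq2 and -0.017 without a filter, where Mrc1 was -0.00011.

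Leaving out single libraries also turned the sign of uncalled members. IVF against Natural at E18.5 ran from -0.25 to 0.40 for Adgre1, -0.24 to 0.095 for C1qa, -0.83 to 0.012 for Cd74, -0.0067 to 0.36 for Csf1r, -0.54 to 0.21 for Gpnmb, -0.42 to 0.41 for H2-Ab1 and -0.38 to 0.17 for Mrc1. At 12 weeks it ran from -0.052 to 0.24 for Adgre1, -0.29 to 0.063 for C1qa, -0.52 to 0.14 for Cd3e, -0.29 to 0.17 for Cd74, -0.22 to 0.19 for Cd79a, -0.088 to 0.18 for Csf1r, -0.18 to 0.41 for Gpnmb, -0.44 to 0.12 for H2-Ab1 and -0.10 to 0.11 for Mrc1. At 39 weeks it ran from -0.11 to 0.080 for Adgre1, -0.35 to 0.042 for Ccl5, -0.0094 to 0.17 for Csf1r and -0.59 to 0.18 for Il1b. Between the ages it ran from -0.14 to 0.12 for Cd79a in Natural, and in IVF ovaries from -0.59 to 0.050 for Ccl5, -0.37 to 0.034 for Cd79a, -0.17 to 0.056 for Cxcl12 and -0.31 to 1.24 for Il1b. Depth limits Cd8a, Il1b and Tnf, which stood at no more than 1.5, 2.16 and 0.665 CPM in any ovary library.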
